A study of Mus musculus with 8 samples.

Results

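The response of wild-type mouse liver to an alcohol diet was read from 4 RNA-seq libraries, 2 from WT mice given alcohol (WT-EtOH) and 2 from WT mice given the control diet (WT-Control), out of 8 libraries in the series. Every gene with enough counts was compared, that is 13993 of the 19267 genes in the table. The mice were C57BL/6 males, 6 weeks old when the feeding began and 9 weeks old at sampling. For 21 days, WT-EtOH mice drank a Lieber-DeCarli liquid diet holding 5% alcohol by weight and volume, and the pair-fed WT-Control mice drank the same diet with maltose dextrin supplying the calories of the alcohol. WT mice carried the Cre transgene and an intact Elf4 gene. The other 4 libraries came from Elf4-/- mice (Elf4fl/fl-Villin-Cre, Elf4 deleted by Cre under the Villin promoter, that is in intestinal epithelium and not in hepatocytes) on both diets, with 2 libraries a group, and entered the model to estimate the spread. No source used here says whether a library is 1 mouse or a pool, so the p-values below measure the spread between libraries.

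The liver oxidizes ethanol to acetaldehyde with alcohol dehydrogenase and with the microsomal cytochrome CYP2E1, and aldehyde dehydrogenases turn acetaldehyde into acetate. The dehydrogenase steps reduce NAD+, which slows the burning of fatty acids and favours their storage as triglyceride droplets. The nuclear receptors PPAR alpha, CAR and PXR sense fatty acids and foreign compounds and drive genes of fatty acid oxidation and drug metabolism. In male mice, pulses of growth hormone keep a set of liver genes at a male-typical level, among them the major urinary proteins that are shed in urine as pheromone carriers.

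Library totals were 6171051 to 6385828 counts in WT-Control and 6994764 to 8254148 counts in WT-EtOH. The labelled tissue showed its markers, since all 11 hepatocyte markers were tested and their summed level was 59863 and 82385 CPM in WT-Control and 45144 and 36929 CPM in WT-EtOH. The scale CPM is a gene's count relative to its library's total, corrected here by TMM factors, which centre the bulk of genes between libraries. Transcripts of the mitochondrial genome made up 33.7% and 23.4% of the WT-Control totals and 12.5% and 10.8% of the WT-EtOH totals. Replicates differed from each other, gene by gene, with an SD on the log2 scale of 0.50 in WT-Control and 0.35 in WT-EtOH.

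Alcohol feeding changed 3025 of 13993 genes in WT liver, 21.6% of those tested (p under 0.05 in edgeR's quasi-likelihood test after Benjamini-Hochberg adjustment). Of these, 1518 genes (10.8%) were higher and 1507 genes (10.8%) lower in WT-EtOH, and those shares are the background for each gene group below. The libraries of the diets did not overlap in CPM for any of the 3025 genes, while over all genes 34.1% had both WT-EtOH libraries above both WT-Control libraries and 32.7% had both below. Called genes changed at least 2-fold in 1138 higher and 942 lower genes, and at least 8-fold in 131 and 114. The median log2 fold change over all genes was 0.01. Scaling by library totals alone moved that median to 0.44 and gave 3422 genes higher and 634 lower, 84.4% of calls higher against 50.2% under TMM, and library totals without the mitochondrial genome gave 1807 and 1048 (63.3%). The counts rested on 4 libraries, with 373 higher and 253 lower genes when WT-EtOH replicate 2 was left out, 548 and 423 without WT-EtOH replicate 1, 774 and 703 without WT-Control replicate 1, and 881 and 872 without WT-Control replicate 2.

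**Figure D1:**
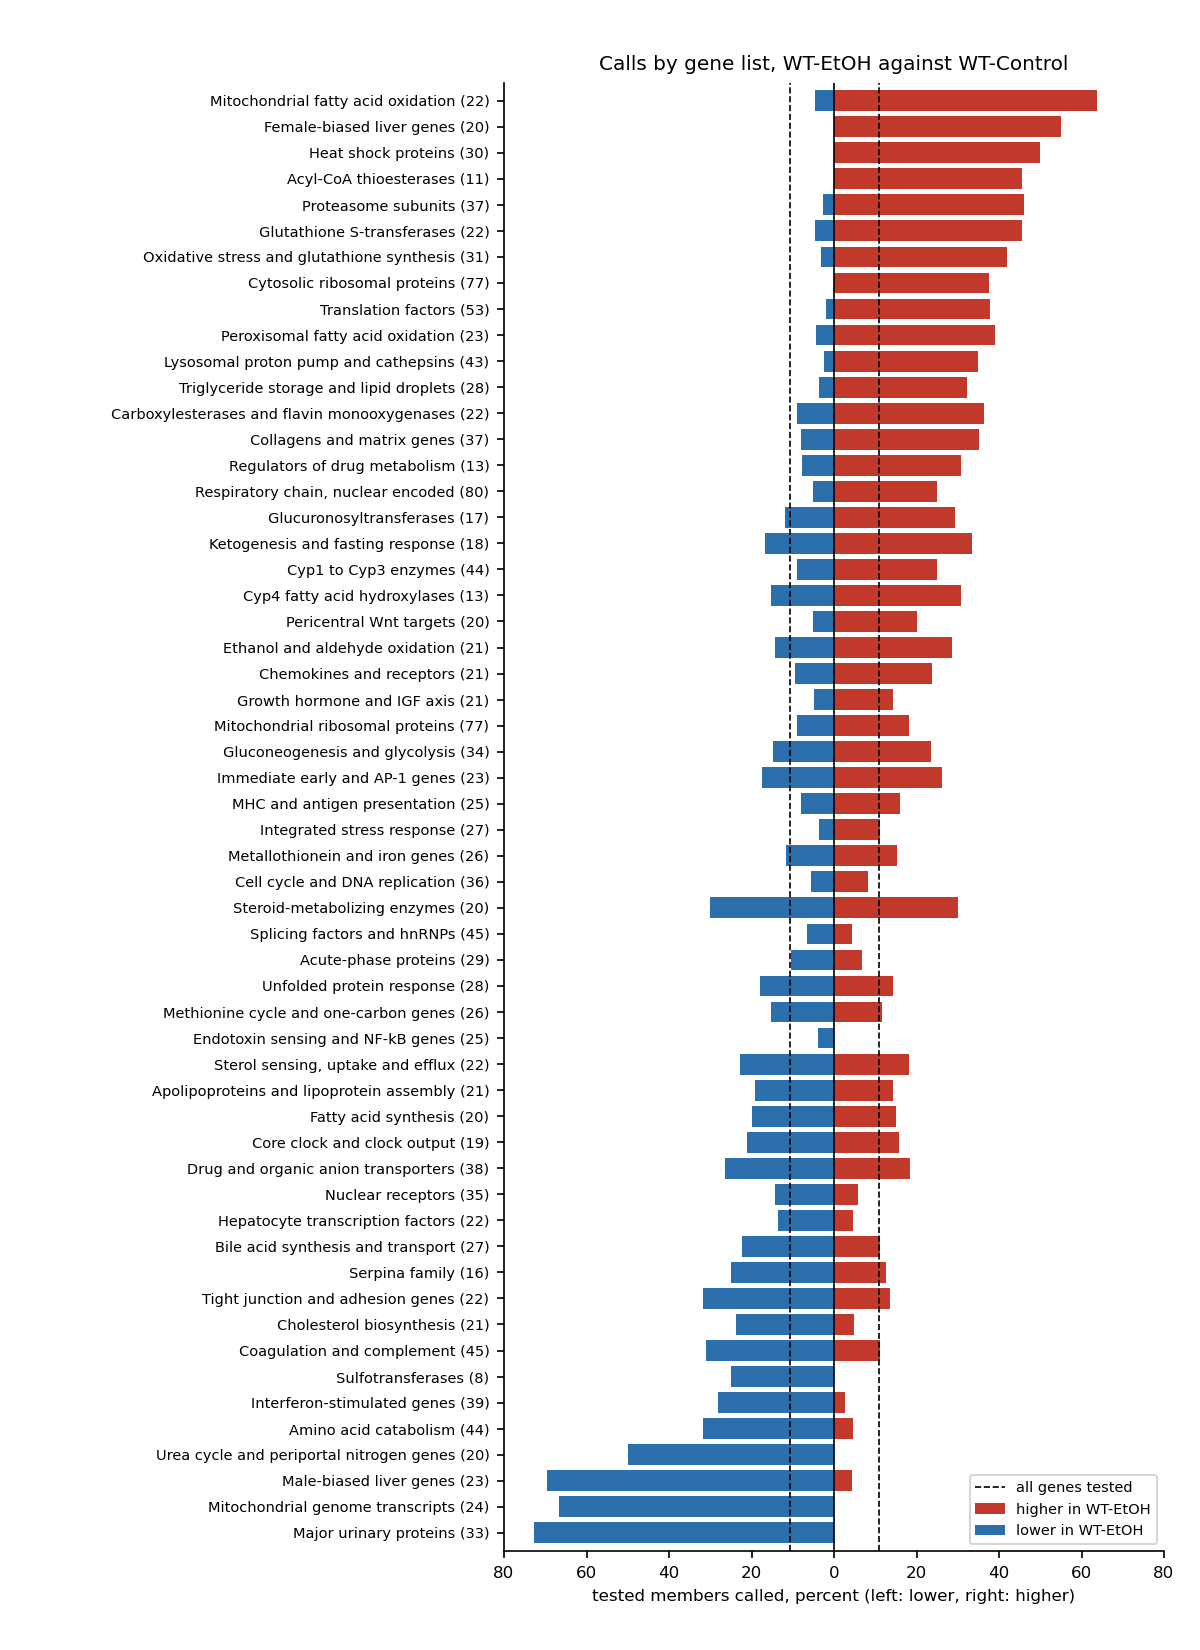
Share of tested members called higher (right, in percent) or lower (left, in percent) in WT-EtOH than in WT-Control for each of 56 gene lists, with tested members in brackets and dashed lines at the 10.8% of all genes called in each direction. The Mup list (24 of 33 lower) and male-biased liver genes (16 of 23 lower), which share members, reach furthest to the left, and mitochondrial fatty acid oxidation (14 of 22 higher) and female-biased liver genes (11 of 20 higher) furthest to the right.

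The 56 lists of pathways and gene families held 1531 tested genes, of which 331 were higher, 221 lower and 979 not called. A further 89 listed genes of the table had too few counts to be tested. Higher calls outnumbered lower calls in 31 lists and lower calls outnumbered higher calls in 24. More than 50% of the tested members were called in 6 lists. In the 9 lists below with no call in a direction, DESeq2 called none either, and at an unadjusted p under 0.05 the count there was 0 except for 3 endotoxin sensing genes higher and 1 heat shock protein lower. Of the 24 lists with more lower calls, 17 no longer had more lower than higher calls under library totals. Higher and lower calls there were 4 and 3 for fatty acid synthesis, 4 and 3 for sterol uptake and efflux, 8 and 3 for lipoproteins, 6 and 5 for bile acid genes, 4 and 3 for the Serpina family (2 and 4 under TMM), 4 and 3 for clock genes, 6 and 5 for nuclear receptors, 5 and 1 for hepatocyte transcription factors and 7 and 3 for the methionine cycle. They were 6 and 0 for endotoxin sensing, 6 and 3 for the unfolded protein response and 12 and 1 for splicing factors, and the other 5 are given with their lists. Calls of single genes that were lost without at least 1 WT library are not marked one by one. Instead, the paragraphs name, among genes given with their values, the calls that held with each of the 4 WT libraries left out in turn.

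Genes that burn fatty acids were mostly higher where called. In mitochondria, 14 of 22 tested members of the oxidation pathway were higher and 1 lower, with a median log2 fold change of 0.88 against 0.01 over all genes. Etfdh, which hands electrons from fatty acid oxidation to the respiratory chain, read 38.2 and 44.9 CPM in WT-Control and 137 and 140.0 CPM in WT-EtOH (log2 fold change 1.73 ± 0.25 SE, edgeR adjusted p = 0.00277). Acsl1, which activates long-chain fatty acids, read 631 and 575 CPM in WT-Control and 1767 and 1895 CPM in WT-EtOH (log2 fold change 1.60 ± 0.29 SE, edgeR adjusted p = 0.00563). Decr1, needed for unsaturated fatty acids, read 72.2 and 75.1 CPM in WT-Control and 191 and 251 CPM in WT-EtOH (log2 fold change 1.58 ± 0.21 SE, edgeR adjusted p = 0.00225). In each of these genes both WT-EtOH libraries stood above both WT-Control libraries, as in every gene called higher. Cpt1a, the gatekeeper of entry into mitochondria, read 172 and 252 CPM in WT-Control and 264 and 252 CPM in WT-EtOH and was not called (log2 fold change 0.28, edgeR adjusted p = 0.457). Acsm3, a medium-chain acyl-CoA synthetase, was the lower member at 198 and 145 CPM in WT-Control and 84.2 and 93.3 CPM in WT-EtOH (log2 fold change -0.95 ± 0.24 SE, edgeR adjusted p = 0.0209). With 1 WT library left out, 8 to 13 of the 15 calls held. The calls of Etfdh, Acsl1 and Decr1 held with each WT library left out.

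Peroxisomal oxidation had 9 of 23 members higher and 1 lower, with a median of 0.53. Ehhadh, the bifunctional enzyme of the peroxisomal cycle (chromosome 16, 21761287 to 21787807, minus strand), read 36.5 and 44.5 CPM in WT-Control and 858 and 843 CPM in WT-EtOH (log2 fold change 4.39 ± 0.52 SE, edgeR adjusted p = 0.00169). Hacl1, which shortens branched fatty acids, read 4.66 and 4.05 CPM in WT-Control and 38.2 and 24.9 CPM in WT-EtOH (log2 fold change 2.85 ± 0.32 SE, edgeR adjusted p = 0.00147). Acaa1b, a thiolase of the cycle, rose by 2.05 on the log2 scale. Amacr, a racemase for branched and bile acid precursors, fell from 113 and 124 CPM in WT-Control to 83.6 and 70.3 CPM in WT-EtOH (log2 fold change -0.62 ± 0.20 SE, edgeR adjusted p = 0.0499). Catalase (Cat), the peroxisomal enzyme that removes hydrogen peroxide, read 2174 and 2291 CPM in WT-Control and 2092 and 2046 CPM in WT-EtOH and its libraries lay close together. Between 2 and 8 of these 10 calls held with 1 WT library left out, the fewest without WT-EtOH replicate 2. With each WT library left out in turn, the calls of Ehhadh and Hacl1 held.

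The acyl-CoA thioesterases and the fatty acid hydroxylases gave steep responses. Acot3, a peroxisomal thioesterase (chromosome 12, 84052144 to 84060402, plus strand), was nearly silent under the control diet, at 0.373 and 0.552 CPM in WT-Control and 132 and 261 CPM in WT-EtOH (log2 fold change 8.68 ± 0.47 SE, edgeR adjusted p = 6.28e-05). Acot1, its cytosolic relative, read 1.12 and 0.736 CPM in WT-Control and 148 and 177 CPM in WT-EtOH (log2 fold change 7.43 ± 0.49 SE, edgeR adjusted p = 0.000163), and Acot2, the mitochondrial form, read 2.98 and 1.47 CPM in WT-Control and 27.1 and 46.6 CPM in WT-EtOH (log2 fold change 4.04 ± 0.53 SE, edgeR adjusted p = 0.0022). In all, 5 of 11 thioesterases were higher and none lower (median 1.40). These neighbours are near-identical copies, and Acot3 overlaps Gm49366, so reads could have been split among them. Cyp4a14 (chromosome 4, 115486200 to 115496142, minus strand) read 28.3 and 1.10 CPM in WT-Control and 2568 and 2717 CPM in WT-EtOH (log2 fold change 7.49 ± 1.28 SE, edgeR adjusted p = 0.00481), with 1 WT-Control library well above the other. Cyp4a10, also an omega-hydroxylase, read 52.02 and 40.8 CPM in WT-Control and 1099.8 and 1093 CPM in WT-EtOH (log2 fold change 4.56 ± 0.36 SE, edgeR adjusted p = 0.000364). The male-typical Cyp4a12b moved the other way, at 73.1 and 39.9 CPM in WT-Control and 15.7 and 9.38 CPM in WT-EtOH (log2 fold change -2.18 ± 0.45 SE, edgeR adjusted p = 0.00956). Over the whole Cyp4 family 4 of 13 members were higher and 2 lower, and the median was -0.11 (0.33 under library totals). Calls held for Acot3, Acot1, Acot2, Cyp4a14 and Cyp4a10 with each WT library left out.

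Of 18 genes of ketogenesis and fasting, 6 were higher and 3 lower. Pdk4, which blocks pyruvate from entering the citric acid cycle, rose from 1.49 and 0.368 CPM in WT-Control to 135 and 186 CPM in WT-EtOH (log2 fold change 7.41 ± 1.497 SE, edgeR adjusted p = 0.00906). Fgf21, a fasting hormone, read 4.10 and 4.05 CPM in WT-Control and 12.5 and 21.4 CPM in WT-EtOH (log2 fold change 2.06 ± 0.46 SE, edgeR adjusted p = 0.0141). Ppara, the fatty acid receptor itself, read 22.7 and 40.3 CPM in WT-Control and 42.99 and 43.00 CPM in WT-EtOH and was not called (log2 fold change 0.45). Slc16a6, the ketone body exporter, fell from 41.6 and 33.7 CPM in WT-Control to 11.9 and 13.2 CPM in WT-EtOH (log2 fold change -1.58 ± 0.36 SE, edgeR adjusted p = 0.0149). None of the calls given with values here held with each WT library left out.

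Fatty acid synthesis split, with 3 of 20 members higher and 4 lower and a median of -0.51. Srebf1, the transcription factor that drives lipogenesis, was lower, at 263 and 326 CPM in WT-Control and 39.96 and 50.03 CPM in WT-EtOH (log2 fold change -2.71 ± 0.57 SE, edgeR adjusted p = 0.0109). Elovl3, an elongase, read 71.2 and 73.6 CPM in WT-Control and 15.9 and 11.3 CPM in WT-EtOH (log2 fold change -2.41 ± 0.25 SE, edgeR adjusted p = 0.000995), and Thrsp, a lipogenic cofactor, read 99.9 and 103 CPM in WT-Control and 26.8 and 42.6 CPM in WT-EtOH (log2 fold change -1.55 ± 0.26 SE, edgeR adjusted p = 0.0045). Fasn, the fatty acid synthase, read 162 and 222 CPM in WT-Control and 82.4 and 88.2 CPM in WT-EtOH, a log2 fold change of -1.17 that was not called (edgeR adjusted p = 0.142). Me1, which makes NADPH from malate, went up instead, at 43.8 and 34.96 CPM in WT-Control and 140.2 and 237 CPM in WT-EtOH (log2 fold change 2.26 ± 0.27 SE, edgeR adjusted p = 0.0017). Srebf1 shares its locus with Rai1 on the other strand, and whether the counting used strand is not given in the sources used here. With any 1 WT library left out, Elovl3, Thrsp and Me1 stayed past the threshold.

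Lipid droplet and storage genes were mostly higher where called, 9 of 28 against 1 lower (median 0.47). Plin2, the coat protein of liver droplets (chromosome 4, 86648386 to 86670060, minus strand), read 83.5 and 103 CPM in WT-Control and 673 and 774 CPM in WT-EtOH (log2 fold change 2.96 ± 0.28 SE, edgeR adjusted p = 0.000802). Cd36, a fatty acid carrier of the cell surface, read 6.53 and 4.60 CPM in WT-Control and 32.7 and 68.99 CPM in WT-EtOH (log2 fold change 3.19 ± 0.47 SE, edgeR adjusted p = 0.00299), and Plin4, another droplet coat, read 11.4 and 7.18 CPM in WT-Control and 33.1 and 101 CPM in WT-EtOH (log2 fold change 2.85 ± 0.83 SE, edgeR adjusted p = 0.0367). Cideb, which loads lipid onto VLDL, was lower at 194 and 213 CPM in WT-Control and 112 and 83.8 CPM in WT-EtOH (log2 fold change -1.05 ± 0.22 SE, edgeR adjusted p = 0.00995). Fabp4, a carrier that adipocytes, macrophages and endothelium also make, was among the 9. Summed over the list, the level was 8538 and 7176 CPM in WT-Control and 6786 and 7148 CPM in WT-EtOH, with both WT-EtOH sums just under both WT-Control sums. Such a sum is set mostly by the most abundant members. Without WT-EtOH replicate 2, the log2 fold change was 1.83 for Plin4. Past the threshold with each WT library left out were Plin2 and Cd36.

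**Figure D2:**
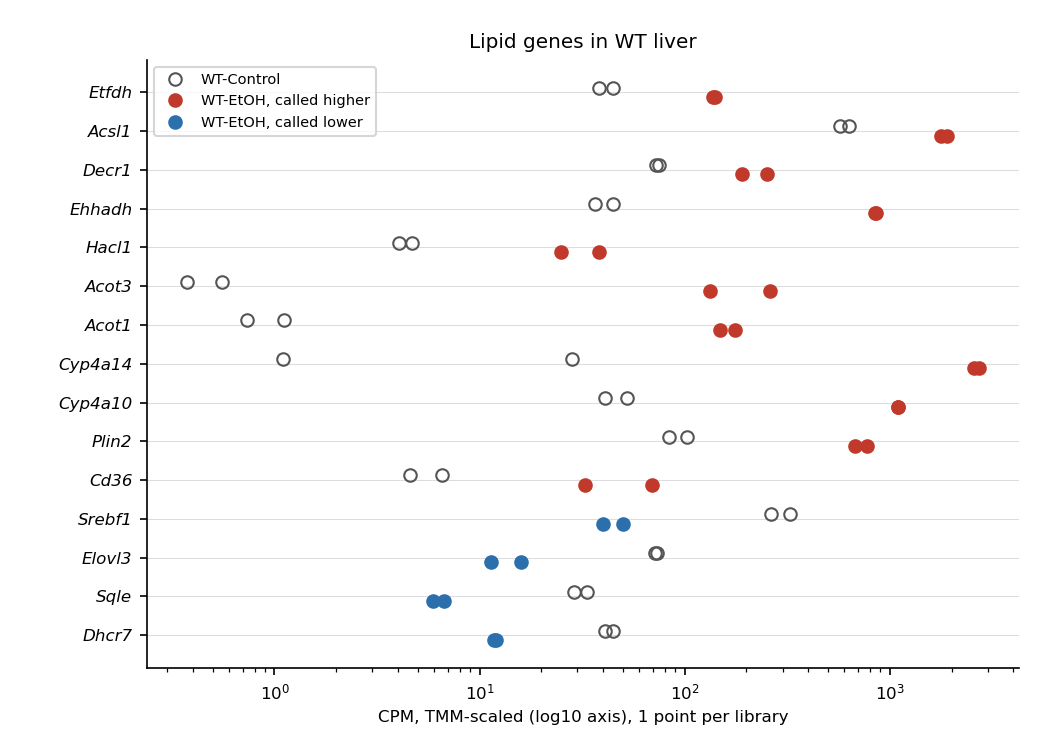
CPM of 15 lipid genes in the 2 WT-Control libraries (open circles) and the 2 WT-EtOH libraries (filled circles, red for called higher and blue for called lower), on a log10 axis. The first 11 genes have both filled circles to the right, with Acot3 moving from under 1 CPM to 132 and 261 CPM, and Srebf1, Elovl3, Sqle and Dhcr7 have both filled circles to the left.

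Cholesterol synthesis had 5 of 21 members lower and 1 higher, with a median of -0.51. Sqle, the squalene epoxidase (chromosome 15, 59315077 to 59331192, plus strand), read 33.6 and 28.7 CPM in WT-Control and 5.94 and 6.73 CPM in WT-EtOH (log2 fold change -2.29 ± 0.31 SE, edgeR adjusted p = 0.00242). Dhcr7, which makes cholesterol in the last step, read 41.02 and 44.5 CPM in WT-Control and 12.01 and 11.7 CPM in WT-EtOH (log2 fold change -1.85 ± 0.29 SE, edgeR adjusted p = 0.00359), and Nsdhl, a sterol dehydrogenase, read 71.2 and 43.2 CPM in WT-Control and 18.5 and 18.9 CPM in WT-EtOH (log2 fold change -1.62 ± 0.30 SE, edgeR adjusted p = 0.00662). Hmgcs1, the first committed enzyme and a gene named after its values were seen, read 564 and 296 CPM in WT-Control and 132 and 177 CPM in WT-EtOH (log2 fold change -1.47 ± 0.33 SE, edgeR adjusted p = 0.0144). Between 2 and 6 of the 6 calls held when 1 WT library was left out. Library totals gave a median of -0.09 with 4 members higher and 4 lower. Without WT-Control replicate 1, the log2 fold change was -0.94 for Hmgcs1. The calls of Sqle and Dhcr7 held with each WT library left out.

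Sterol uptake and efflux genes, lipoproteins and bile acid genes had calls in both directions. Members called made up 40.9%, 33.3% and 33.3% in that order, against 21.6% of all genes. For lipoproteins and bile acid genes, the higher calls were not far above the 10.8% of all genes. Of 22 sterol uptake and efflux genes 4 were higher and 5 lower, with a median of -0.36. Abcg5, a subunit of the transporter that secretes cholesterol into bile, read 445 and 399 CPM in WT-Control and 162 and 145 CPM in WT-EtOH (log2 fold change -1.46 ± 0.24 SE, edgeR adjusted p = 0.00445) and overlaps its partner Abcg8. Abcg1, a cholesterol exporter abundant in macrophages, read 3.17 and 3.31 CPM in WT-Control and 11.8 and 12.1 CPM in WT-EtOH (log2 fold change 1.88 ± 0.33 SE, edgeR adjusted p = 0.00556). Apoa1, the main protein of HDL, was among the 10 largest losses in CPM, at 12401 and 20052 CPM in WT-Control and 4208 and 2191 CPM in WT-EtOH (log2 fold change -2.34 ± 0.42 SE, edgeR adjusted p = 0.00592), while Apoa5 rose by 1.41 on the log2 scale. The lipoprotein list had 3 of 21 higher and 4 lower, and 0 to 4 of those calls held with 1 WT library left out. Among 27 bile acid genes 3 were higher and 6 lower. Abcc4, a basolateral bile acid exporter (chromosome 14, 118482692 to 118706219, minus strand), read 1.12 and 0.368 CPM in WT-Control and 25.5 and 49.7 CPM in WT-EtOH (log2 fold change 5.64 ± 0.89 SE, edgeR adjusted p = 0.00365), whereas Abcb11, the canalicular bile salt pump, read 833 and 708 CPM in WT-Control and 396 and 263 CPM in WT-EtOH (log2 fold change -1.23 ± 0.26 SE, edgeR adjusted p = 0.0115) and the uptake carrier Slco1a1 fell by 2.11 on the log2 scale. Abcc4 stayed past the threshold with each WT library left out.

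The enzymes that handle ethanol itself were partly higher, 6 of 21 against 3 lower (median 0.17). Adh1, the main liver alcohol dehydrogenase, read 571 and 832 CPM in WT-Control and 2217 and 2107 CPM in WT-EtOH (log2 fold change 1.62 ± 0.28 SE, edgeR adjusted p = 0.00477). Cyp2e1, the ethanol-inducible cytochrome, read 2076 and 2874 CPM in WT-Control and 5566 and 4850.4 CPM in WT-EtOH (log2 fold change 1.07 ± 0.29 SE, edgeR adjusted p = 0.0287). Aldh1a1, a cytosolic aldehyde dehydrogenase (chromosome 19, 20492715 to 20643465, plus strand), read 172 and 229 CPM in WT-Control and 952 and 1209 CPM in WT-EtOH (log2 fold change 2.43 ± 0.44 SE, edgeR adjusted p = 0.00582). All 3 genes were higher in both WT-EtOH libraries, which holds for every gene called higher. Aldh2, the mitochondrial enzyme that clears most acetaldehyde, read 816 and 1002 CPM in WT-Control and 1489.7 and 1567 CPM in WT-EtOH, which did not overlap but did not pass (log2 fold change 0.75, edgeR adjusted p = 0.065). Adh4, a dehydrogenase of longer alcohols and retinol, was lower at 95.5 and 90.5 CPM in WT-Control and 48.7 and 40.4 CPM in WT-EtOH (log2 fold change -1.06 ± 0.33 SE, edgeR adjusted p = 0.046). Calls held for Adh1 and Aldh1a1 with each WT library left out.

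Drug-metabolizing cytochromes of the families Cyp1 to Cyp3 had 11 of 44 members higher and 4 lower, with a median of 0.55. Cyp2b9 (chromosome 7, 26173411 to 26210661, plus strand) read 0.932 and 0.920 CPM in WT-Control and 161 and 296 CPM in WT-EtOH (log2 fold change 7.92 ± 0.60 SE, edgeR adjusted p = 0.000316), and Cyp2a4, a testosterone hydroxylase of female liver, read 6.53 and 0.552 CPM in WT-Control and 196 and 527 CPM in WT-EtOH (log2 fold change 6.67 ± 1.05 SE, edgeR adjusted p = 0.00359). Cyp2a5 was among the 10 largest gains in CPM, at 409 and 491 CPM in WT-Control and 4801 and 6678 CPM in WT-EtOH (log2 fold change 3.67 ± 0.42 SE, edgeR adjusted p = 0.0015), and is nearly identical to Cyp2a4. Cyp3a11, the PXR target, read 259 and 466 CPM in WT-Control and 2546 and 2472 CPM in WT-EtOH (log2 fold change 2.79 ± 0.33 SE, edgeR adjusted p = 0.00167). The CAR target Cyp2b10 had 0 and 0 counts under the control diet and 113 and 120 counts in WT-EtOH, at least 23.7-fold higher against a floor of 3 counts a library, and was not called (edgeR adjusted p = 0.108). Cyp2u1 was the steepest fall of the family, at 61.7 and 104 CPM in WT-Control and 5.18 and 5.503 CPM in WT-EtOH (log2 fold change -3.95 ± 0.50 SE, edgeR adjusted p = 0.00196). The receptors themselves were not called, at log2 fold changes of -0.32 for Nr1i2 (PXR) and 0.39 for Nr1i3 (CAR). Of 13 regulators and partners 4 were higher and 1 lower, and 1 to 2 of these 5 calls held with 1 WT library left out. Among them Por, the electron donor of every microsomal cytochrome, read 112 and 141 CPM in WT-Control and 427 and 416 CPM in WT-EtOH (log2 fold change 1.74 ± 0.43 SE, edgeR adjusted p = 0.0196), and Alas1, the rate-limiting enzyme of heme synthesis, read 103 and 158 CPM in WT-Control and 711 and 875 CPM in WT-EtOH (log2 fold change 2.61 ± 0.70 SE, edgeR adjusted p = 0.0275). Of the 15 cytochrome calls, 10 to 11 held with 1 WT library left out. Leaving out each WT library in turn kept the calls of Cyp2b9, Cyp2a4, Cyp2a5, Cyp3a11 and Cyp2u1.

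Conjugation enzymes split by family. Glutathione S-transferases were mostly higher where called, with 10 of 22 higher and 1 lower and a median of 1.14. Gsta1 (chromosome 9, 78230656 to 78242684, plus strand) read 0.186 and 0.552 CPM in WT-Control and 32.7 and 133 CPM in WT-EtOH (log2 fold change 7.74 ± 1.67 SE, edgeR adjusted p = 0.0116), Gsta2 read 4.29 and 2.39 CPM in WT-Control and 191 and 277 CPM in WT-EtOH (log2 fold change 6.13 ± 0.73 SE, edgeR adjusted p = 0.0017) and Gstm3 read 4.29 and 10.3 CPM in WT-Control and 251 and 523 CPM in WT-EtOH (log2 fold change 5.73 ± 1.01 SE, edgeR adjusted p = 0.00535). Gstm1, already abundant, gained the most CPM of the family, at 759.8 and 675 CPM in WT-Control and 4466 and 6838 CPM in WT-EtOH (log2 fold change 2.98 ± 0.50 SE, edgeR adjusted p = 0.00464). The summed level of the family was 6615 and 7136 CPM in WT-Control and 13790 and 16948 CPM in WT-EtOH. Members of a subclass are close copies, so reads may have been split between them. Of 17 glucuronosyltransferases 5 were higher and 2 lower, with Ugt1a9 at 0.186 and 0.184 CPM in WT-Control and 12.1 and 13.5 CPM in WT-EtOH (log2 fold change 5.99 ± 0.82 SE, edgeR adjusted p = 0.00248) and Ugt2b38 at 21.3 and 54.1 CPM in WT-Control and 1.26 and 0.815 CPM in WT-EtOH (log2 fold change -5.18 ± 0.83 SE, edgeR adjusted p = 0.00387). Ugt1a9 overlaps Ugt1a1 and other Ugt1a genes on the same strand, so its level may not reflect all of its own reads. Sulfotransferases had no higher member and 2 of 8 lower, among them Sult5a1 (log2 fold change -3.27 ± 0.67 SE, edgeR adjusted p = 0.00946). With any 1 WT library left out, Gsta2, Gstm1 and Ugt1a9 stayed past the threshold.

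Carboxylesterases and flavin monooxygenases had 8 of 22 higher and 2 lower, and the transporters of drugs and organic anions 7 of 38 higher and 10 lower (11 and 6 under library totals). Ces1d, a lipase of the endoplasmic reticulum, read 235 and 154 CPM in WT-Control and 979 and 1764 CPM in WT-EtOH (log2 fold change 2.82 ± 0.39 SE, edgeR adjusted p = 0.00248). Aox3, an aldehyde oxidase, was lower at 996 and 1068 CPM in WT-Control and 112 and 108 CPM in WT-EtOH (log2 fold change -3.23 ± 0.48 SE, edgeR adjusted p = 0.00309). Slc22a28 and Slc22a26, anion carriers of the same cluster, moved apart, the first at 30.4 and 28.2 CPM in WT-Control and 2.40 and 1.63 CPM in WT-EtOH (log2 fold change -3.87 ± 0.85 SE, edgeR adjusted p = 0.0128) and the second at 0.932 and 0.184 CPM in WT-Control and 6.83 and 21.7 CPM in WT-EtOH (log2 fold change 4.65 ± 0.75 SE, edgeR adjusted p = 0.004). Past the threshold with each WT library left out were Ces1d, Aox3 and Slc22a26.

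Genes that answer oxidative stress were mostly higher where called, 13 of 31 against 1 lower (median 0.69). Cbr3, a carbonyl reductase, read 0 and 0.368 CPM in WT-Control and 12.01 and 26.1 CPM in WT-EtOH (log2 fold change 6.56 ± 0.79 SE, edgeR adjusted p = 0.00171). Nqo1, the quinone reductase that NRF2 drives, read 2.24 and 3.13 CPM in WT-Control and 29.6 and 45.4 CPM in WT-EtOH (log2 fold change 3.80 ± 0.60 SE, edgeR adjusted p = 0.00364). Hmox1, which breaks down heme, read 8.02 and 7.36 CPM in WT-Control and 39.1 and 41.5 CPM in WT-EtOH (log2 fold change 2.39 ± 0.55 SE, edgeR adjusted p = 0.0152). Like every called gene, these did not overlap between the diets. Gclc, which limits glutathione synthesis, read 444 and 299 CPM in WT-Control and 396 and 535 CPM in WT-EtOH and did overlap. Ferritin heavy chain (Fth1), the iron store, read 457 and 737 CPM in WT-Control and 1879.5 and 2340.5 CPM in WT-EtOH (log2 fold change 1.82 ± 0.44 SE, edgeR adjusted p = 0.0182), and 4 of 26 metal genes were higher and 3 lower. Slc40a1, also used below as a Kupffer cell marker, was among the higher ones. Hamp, which encodes the iron hormone hepcidin, read 636 and 68.3 CPM in WT-Control and 927 and 739 CPM in WT-EtOH, a spread within WT-Control wider than the difference between diets. Without WT-Control replicate 2, the log2 fold change was 10.19 for Cbr3. The calls of Cbr3 and Nqo1 held with each WT library left out.

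Where called, male-typical liver genes were mostly lower and female-typical genes higher. Of 33 tested major urinary protein genes and pseudogenes, 24 were lower and none higher (median log2 fold change -3.51), and their summed level was 20308 and 32094 CPM in WT-Control and 3741 and 2879 CPM in WT-EtOH. Mup7 (chromosome 4, 60066469 to 60070475, minus strand) read 1544 and 4183 CPM in WT-Control and 30.3 and 7.03 CPM in WT-EtOH (log2 fold change -7.27 ± 0.98 SE, edgeR adjusted p = 0.00241), Mup21 read 462 and 565 CPM in WT-Control and 12.3 and 2.65 CPM in WT-EtOH (log2 fold change -6.13 ± 0.96 SE, edgeR adjusted p = 0.00359) and Mup20, the pheromone darcin, read 3856 and 4627 CPM in WT-Control and 535 and 450.2 CPM in WT-EtOH (log2 fold change -3.11 ± 0.59 SE, edgeR adjusted p = 0.00747). Mup genes are near-identical and reads could move between copies, so the family sum is firmer than any 1 member. With 1 WT library left out, 8 to 21 of the 24 calls held. With each WT library left out in turn, the calls of Mup7 and Mup21 held.

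Among 23 male-biased liver genes 16 were lower and 1 higher (median -2.41). Selenbp2, a selenium-binding protein, read 949 and 1104 CPM in WT-Control and 13.02 and 2.96 CPM in WT-EtOH (log2 fold change -7.02 ± 0.75 SE, edgeR adjusted p = 0.00128). Hsd3b5, a steroid reductase, read 96.6 and 197 CPM in WT-Control and 1.26 and 1.12 CPM in WT-EtOH (log2 fold change -6.93 ± 0.62 SE, edgeR adjusted p = 0.000641), and the protease inhibitor gene Serpina1e read 4076 and 3976 CPM in WT-Control and 116 and 72.05 CPM in WT-EtOH (log2 fold change -5.42 ± 0.87 SE, edgeR adjusted p = 0.00387). The exception was Ugt2b1, at 246 and 225 CPM in WT-Control and 445 and 338 CPM in WT-EtOH (log2 fold change 0.74 ± 0.23 SE, edgeR adjusted p = 0.049). Of 20 tested female-biased genes 11 were higher and none lower (median 1.69). Cux2, the female-specific repressor, read 1.31 and 0.552 CPM in WT-Control and 12.3 and 36.9 CPM in WT-EtOH (log2 fold change 4.71 ± 1.32 SE, edgeR adjusted p = 0.032), and Cyp2b13 read 0.373 and 0 CPM in WT-Control and 12.3 and 50.3 CPM in WT-EtOH (log2 fold change 7.28 ± 1.38 SE, edgeR adjusted p = 0.00717). Between 9 and 14 of the 17 male-biased and 6 to 8 of the 11 female-biased calls held with 1 WT library left out. Some genes stand in more than 1 list, such as Acot3 and Cyp2b9 among the female-biased genes here. The male-biased list shares Mup7, Mup20 and Mup21 with the Mup list, and Elovl3, Cyp4a12b, Cyp2u1 and Serpina1e with others. Its lower calls are therefore not separate from those given there. Calls held for Selenbp2, Hsd3b5 and Serpina1e with each WT library left out.

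In the growth hormone axis, Bcl6, the male-biased repressor (chromosome 16, 23965052 to 23988852, minus strand), read 218 and 185 CPM in WT-Control and 23.6 and 13.96 CPM in WT-EtOH (log2 fold change -3.42 ± 0.39 SE, edgeR adjusted p = 0.00147). Socs2, a feedback inhibitor of the receptor, read 20.9 and 30.7 CPM in WT-Control and 54.5 and 49.1 CPM in WT-EtOH (log2 fold change 1.004 ± 0.32 SE, edgeR adjusted p = 0.0488). Igf1, the main endocrine product, read 1997 and 766 CPM in WT-Control and 649.5 and 656 CPM in WT-EtOH, with 1 WT-Control library near the WT-EtOH values, and was not called except without that library, WT-Control replicate 2 (edgeR adjusted p = 0.0434). Ghr, the receptor, read 351 and 382 CPM in WT-Control and 314 and 322 CPM in WT-EtOH, close together in all 4 libraries. The axis had 3 of 21 higher and 1 lower, 19.0% called and so below the 21.6% of all genes. Its median of -0.06 became 0.38 under library totals. Of 20 steroid-metabolizing enzymes 6 were higher and 6 lower, with Akr1c19 at 12.9 and 10.3 CPM in WT-Control and 70.3 and 91.6 CPM in WT-EtOH (log2 fold change 2.80 ± 0.22 SE, edgeR adjusted p = 0.000364). Leaving out each WT library in turn kept the calls of Bcl6 and Akr1c19.

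**Figure D3:**
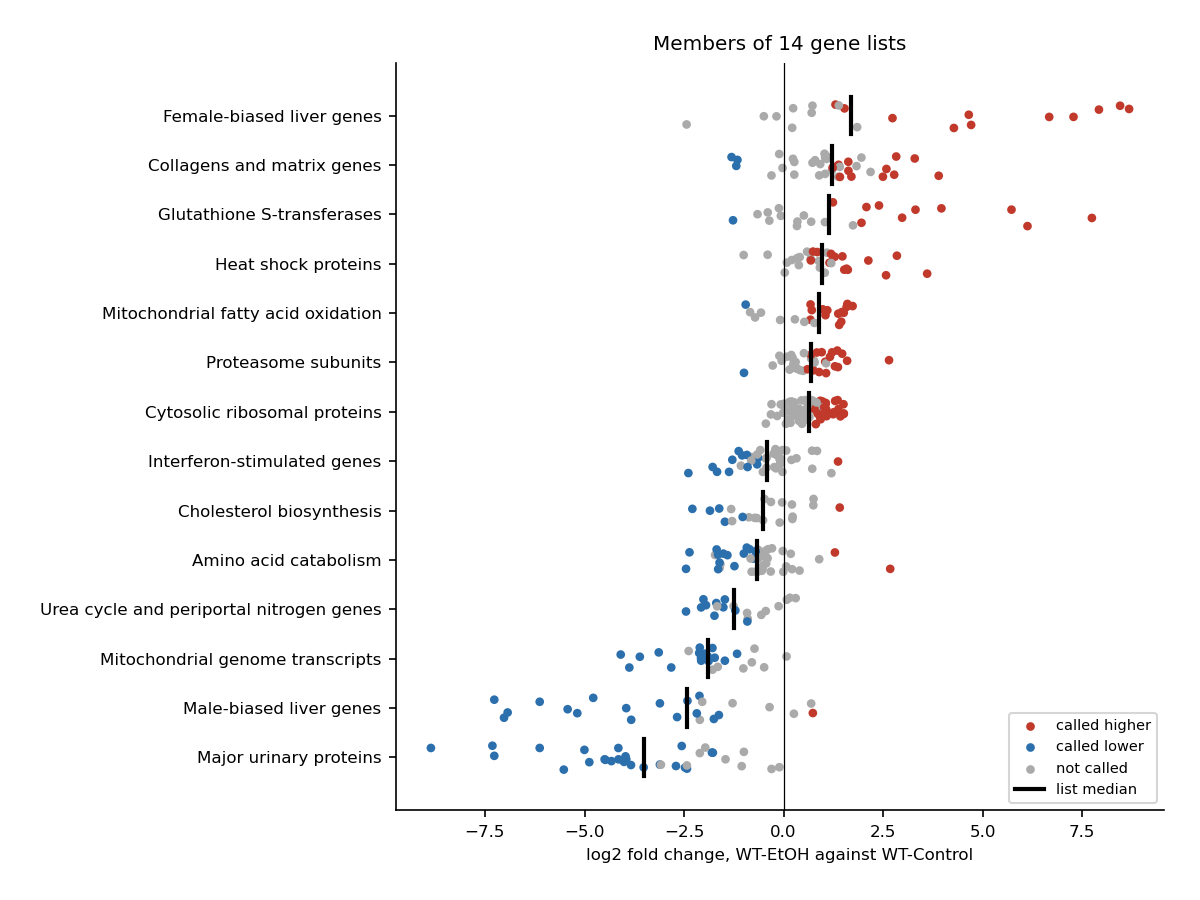
Log2 fold change, WT-EtOH against WT-Control, of every tested member of 14 gene lists, with members called higher in red, called lower in blue, others in grey and a bar at the list median. Mup, male-biased and mitochondrial genome lists lie mostly below 0 (medians -3.51, -2.41 and -1.89), and female-biased, transferase and heat shock lists mostly above (1.69, 1.14 and 0.97). The Mup and male-biased lists share members.

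Clock genes split. Nr1d1, the repressor REV-ERB alpha, read 197 and 229.8 CPM in WT-Control and 21.4 and 38.2 CPM in WT-EtOH (log2 fold change -2.84 ± 0.37 SE, edgeR adjusted p = 0.0022), and Dbp, an output activator, read 361 and 373 CPM in WT-Control and 16.8 and 66.5 CPM in WT-EtOH (log2 fold change -3.13 ± 0.71 SE, edgeR adjusted p = 0.0142). Ciart, a clock repressor, read 38.6 and 20.6 CPM in WT-Control and 2.91 and 13.3 CPM in WT-EtOH (log2 fold change -1.83 ± 0.53 SE, edgeR adjusted p = 0.0358), and Cry1 was higher at 6.90 and 4.05 CPM in WT-Control and 14.3 and 9.78 CPM in WT-EtOH (log2 fold change 1.13 ± 0.35 SE, edgeR adjusted p = 0.044). Per1, a core clock repressor, read 65.8 and 55.6 CPM in WT-Control and 39.7 and 64.1 CPM in WT-EtOH, with the diets overlapping. In all 3 of 19 clock genes were higher and 4 lower, with a median of -0.22 that became 0.22 under library totals. The hour of sampling is not given in the sources used here, and its part in these values was not tested. Thra, a thyroid hormone receptor that overlaps Nr1d1 on the opposite strand, read 216 and 172 CPM in WT-Control and 16.4 and 30.98 CPM in WT-EtOH (log2 fold change -3.03 ± 0.32 SE, edgeR adjusted p = 0.0012), and reads of the pair cannot be told apart without strand. Of 35 nuclear receptors 2 were higher and 5 lower, and of 22 hepatocyte transcription factors 1 and 3. Hnf4a, the master factor of hepatocytes, read 496 and 482 CPM in WT-Control and 413 and 287 CPM in WT-EtOH and was not called (edgeR adjusted p = 0.172). Without WT-EtOH replicate 1, the log2 fold change was -1.15 for Ciart. Without WT-EtOH replicate 2, the log2 fold change was -3.35 for Ciart. With any 1 WT library left out, Nr1d1 and Thra stayed past the threshold.

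Zonal genes were counted in a periportal nitrogen list, which includes the urea cycle, and a pericentral list, with no test between them. Bulk libraries do not show the side of the lobule, so the zone of each member, such as Slc38a3, was not tested. Periportal nitrogen genes were lower in 10 of 20 cases and higher in none, with a median of -1.23. Sds, which deaminates serine, read 267 and 367 CPM in WT-Control and 78.1 and 38.01 CPM in WT-EtOH (log2 fold change -2.45 ± 0.53 SE, edgeR adjusted p = 0.0116). Slc38a3, the glutamine carrier (chromosome 9, 107650634 to 107669530, minus strand), read 1677 and 1948 CPM in WT-Control and 436 and 428 CPM in WT-EtOH (log2 fold change -2.07 ± 0.26 SE, edgeR adjusted p = 0.00196), and Gls2, the liver glutaminase, read 196 and 283 CPM in WT-Control and 79.3 and 44.9 CPM in WT-EtOH (log2 fold change -1.95 ± 0.30 SE, edgeR adjusted p = 0.00359). Of the urea cycle itself, Otc read 736 and 749.8 CPM in WT-Control and 279 and 182 CPM in WT-EtOH (log2 fold change -1.69 ± 0.28 SE, edgeR adjusted p = 0.00445) and Arg1 1261 and 1256 CPM in WT-Control and 511 and 395 CPM in WT-EtOH (log2 fold change -1.47 ± 0.27 SE, edgeR adjusted p = 0.00661), both named after their values were seen, while Cps1, the entry enzyme, read 811 and 1491 CPM in WT-Control and 727 and 238 CPM in WT-EtOH, which did not overlap but did not pass (edgeR adjusted p = 0.1), although leaving out WT-EtOH replicate 1 gave an adjusted p of 0.0333 in edgeR. Pericentral genes had 4 of 20 higher and 1 lower. Glul, the pericentral glutamine synthetase, read 603 and 621 CPM in WT-Control and 2130.2 and 1956 CPM in WT-EtOH (log2 fold change 1.74 ± 0.27 SE, edgeR adjusted p = 0.00354), and Lgr5, a Wnt co-receptor, was the lower one at 13.1 and 18.95 CPM in WT-Control and 8.22 and 5.20 CPM in WT-EtOH (log2 fold change -1.26 ± 0.35 SE, edgeR adjusted p = 0.03). Between 2 and 8 of the 10 periportal calls and 1 to 2 of the 5 pericentral calls held with 1 WT library left out. Past the threshold with each WT library left out were Slc38a3, Gls2 and Glul.

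Amino acid catabolism was mostly lower where called, with 14 of 44 lower and 2 higher (median -0.66). Agxt, which removes glyoxylate, read 114 and 155 CPM in WT-Control and 38.7 and 13.8 CPM in WT-EtOH (log2 fold change -2.36 ± 0.40 SE, edgeR adjusted p = 0.0048). Csad, the taurine-making decarboxylase, was higher at 89.9 and 23.9 CPM in WT-Control and 208 and 521 CPM in WT-EtOH (log2 fold change 2.68 ± 0.62 SE, edgeR adjusted p = 0.0155). In the methionine cycle 3 of 26 genes were higher and 4 lower, 26.9% called against 21.6% of all genes. Folr2, also used below as a Kupffer cell marker, was among the higher ones. Bhmt, which remethylates homocysteine with betaine, read 831 and 1688 CPM in WT-Control and 153 and 71.6 CPM in WT-EtOH (log2 fold change -3.49 ± 0.84 SE, edgeR adjusted p = 0.0179), and Cbs, which removes homocysteine, read 206 and 241 CPM in WT-Control and 88.00 and 62.5 CPM in WT-EtOH (log2 fold change -1.57 ± 0.23 SE, edgeR adjusted p = 0.00281). Mat1a and Gnmt, which make and use S-adenosylmethionine, were not called, at log2 fold changes of 0.35 and 1.32. The calls of Agxt and Cbs held with each WT library left out.

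Sugar metabolism moved in both directions. Of 34 genes 8 were higher and 5 lower. Pck1, the gate of gluconeogenesis, read 3995 and 5039 CPM in WT-Control and 1852 and 859.8 CPM in WT-EtOH (log2 fold change -1.74 ± 0.49 SE, edgeR adjusted p = 0.0335). Fbp1, a later step of the same path, read 59.9 and 119.6 CPM in WT-Control and 423 and 397 CPM in WT-EtOH (log2 fold change 2.19 ± 0.36 SE, edgeR adjusted p = 0.00415), and Pgk1, which serves glycolysis and its reverse, read 14.5 and 27.8 CPM in WT-Control and 112 and 99.7 CPM in WT-EtOH (log2 fold change 2.32 ± 0.34 SE, edgeR adjusted p = 0.00293). Ppp1r3c, a glycogen-targeting subunit, read 29.5 and 17.1 CPM in WT-Control and 6.07 and 5.30 CPM in WT-EtOH (log2 fold change -2.03 ± 0.34 SE, edgeR adjusted p = 0.0046). The other glycolytic enzymes called, Tpi1, Pgam1, Eno1, Pkm and Ldha, were all higher, and Gckr, Slc2a2 and the glycogen synthase gene Gys2 were lower. These 8 were named after their values were seen. With each WT library left out in turn, the calls of Fbp1 and Pgk1 held.

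Among proteins that the liver secretes into plasma, coagulation and complement genes had 14 of 45 lower and 5 higher, with a median of -0.45 (-0.03 under library totals, where 10 were higher and 11 lower). F11, coagulation factor XI (chromosome 8, 45241174 to 45262031, minus strand), read 329 and 201 CPM in WT-Control and 19.7 and 16.8 CPM in WT-EtOH (log2 fold change -3.86 ± 0.37 SE, edgeR adjusted p = 0.000802), and C9, the pore-forming complement protein, read 771 and 859 CPM in WT-Control and 117 and 68.1 CPM in WT-EtOH (log2 fold change -3.14 ± 0.58 SE, edgeR adjusted p = 0.00664). Among the higher ones C3, the central complement protein, read 2007 and 2022 CPM in WT-Control and 4151 and 3768 CPM in WT-EtOH (log2 fold change 0.97 ± 0.27 SE, edgeR adjusted p = 0.0311), and C1qb, made by macrophages, read 16.8 and 12.1 CPM in WT-Control and 65.4 and 54.4 CPM in WT-EtOH (log2 fold change 2.05 ± 0.24 SE, edgeR adjusted p = 0.00155). Acute-phase genes had 2 of 29 higher and 3 lower, no more than the background share, with 5 and 0 under library totals and 0 to 2 of the calls held with 1 WT library left out. Saa1, an acute-phase protein, read 117 and 537 CPM in WT-Control and 154 and 29.4 CPM in WT-EtOH, with the diets overlapping. Alb, serum albumin, read 31654 and 40351 CPM in WT-Control and 25234 and 21676 CPM in WT-EtOH and was not called (edgeR adjusted p = 0.266). Calls held for F11 and C1qb with each WT library left out.

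Interferon-stimulated genes were lower in 11 of 39 cases and higher in 1, with a median of -0.43 that became 0.01 under library totals, where 5 were higher and 5 lower. Isg15, a ubiquitin-like antiviral protein, read 20.3 and 28.2 CPM in WT-Control and 5.18 and 4.08 CPM in WT-EtOH (log2 fold change -2.39 ± 0.29 SE, edgeR adjusted p = 0.00182). Ifit1, which binds foreign RNA, read 36.7 and 34.8 CPM in WT-Control and 11.8 and 10.7 CPM in WT-EtOH (log2 fold change -1.67 ± 0.20 SE, edgeR adjusted p = 0.00181). Mx2, of a family of antiviral GTPases, read 29.1 and 24.5 CPM in WT-Control and 9.10 and 6.52 CPM in WT-EtOH (log2 fold change -1.78 ± 0.24 SE, edgeR adjusted p = 0.00248). The Mx2 locus is annotated as a polymorphic pseudogene, so its level need not stand for a working protein. Ifit2 was the higher member. Between 3 and 7 of the 12 calls held with 1 WT library left out. Isg15 and Ifit1 were picked for display because both carry the classic element for interferon signalling, and their upstream sequences are given here, from RefSeq on GRCm38.p6, 250 bases ending before the start site on the gene's strand, with matches on either strand to GAAA, any 2 bases and GAAA again in capitals.
Isg15, chr4:156200819-156201068, minus strand: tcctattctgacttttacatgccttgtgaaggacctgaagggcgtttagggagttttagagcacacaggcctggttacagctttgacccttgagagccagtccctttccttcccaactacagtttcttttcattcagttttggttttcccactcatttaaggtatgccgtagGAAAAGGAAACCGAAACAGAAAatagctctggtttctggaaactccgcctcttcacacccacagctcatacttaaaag
Ifit1, chr19:34640639-34640888, plus strand: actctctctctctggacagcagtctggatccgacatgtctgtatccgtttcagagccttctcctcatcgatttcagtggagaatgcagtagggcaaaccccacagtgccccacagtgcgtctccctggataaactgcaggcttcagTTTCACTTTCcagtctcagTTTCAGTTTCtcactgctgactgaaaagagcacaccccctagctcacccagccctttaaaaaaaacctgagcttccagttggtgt
Isg15 held 3 matches that overlap one another and Ifit1 held 2. The element stood in 16 of 27 upstream regions found for the list (59.3%) and in 3.25% of 10294 regions of tested genes, and 3 of the 8 called members with a region had it. The list was drawn up from genes known to answer interferon, so its excess over all regions says nothing of the diet. Among called members the share with the element was smaller than over the list. A match is a string of letters and says nothing of binding in these livers. All calls given with values here held with each WT library left out.

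Of 25 endotoxin sensing and NF-kB genes none was higher and 1 was lower. Tlr4, the endotoxin receptor, read 0.746 and 0.184 CPM in WT-Control and 2.02 and 2.24 CPM in WT-EtOH and was not called (edgeR adjusted p = 0.0825). Cd14, its partner, read 2.24 and 1.66 CPM in WT-Control and 3.92 and 3.97 CPM in WT-EtOH and Il1b, a cytokine, 1.12 and 1.47 CPM in WT-Control and 4.55 and 2.75 CPM in WT-EtOH, also not called. Tnf had 2 and 1 counts under the control diet and 9 and 5 counts in WT-EtOH and was not tested. Chemokine genes had 5 of 21 higher and 2 lower. Ccl6, a macrophage chemokine, read 1.49 and 1.47 CPM in WT-Control and 23.3 and 13.2 CPM in WT-EtOH (log2 fold change 3.60 ± 0.78 SE, edgeR adjusted p = 0.0117), and Cxcl1, a neutrophil attractant, fell at 107 and 57.4 CPM in WT-Control and 11.8 and 13.6 CPM in WT-EtOH (log2 fold change -2.70 ± 0.52 SE, edgeR adjusted p = 0.00739). Antigen presentation had 4 of 25 higher and 2 lower, with H2-Ab1 at 12.7 and 12.5 CPM in WT-Control and 45.01 and 39.03 CPM in WT-EtOH (log2 fold change 1.74 ± 0.35 SE, edgeR adjusted p = 0.00875) and Cd74, the invariant chain, at 31.9 and 27.97 CPM in WT-Control and 82.6 and 75.6 CPM in WT-EtOH (log2 fold change 1.40 ± 0.38 SE, edgeR adjusted p = 0.0282). No call given with values here held with each of the 4 libraries left out.

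Markers of several non-parenchymal cells were higher as well. All 13 Kupffer cell markers were higher, and their summed level was 359 and 275 CPM in WT-Control and 1005 and 914 CPM in WT-EtOH. Sinusoidal endothelial markers were higher in 10 of 13 cases (260 and 149 CPM against 539 and 641 CPM) and stellate cell markers in 7 of 12 (178 and 71.6 CPM against 432 and 595 CPM). For single genes, Clec4f, specific to Kupffer cells, read 128 and 103 CPM in WT-Control and 232 and 238 CPM in WT-EtOH (log2 fold change 1.02 ± 0.20 SE, edgeR adjusted p = 0.00772), Stab2, an endothelial scavenger receptor, read 37.7 and 26.1 CPM in WT-Control and 64.99 and 81.1 CPM in WT-EtOH (log2 fold change 1.20 ± 0.29 SE, edgeR adjusted p = 0.0185), and Lrat, which stores vitamin A in stellate cells, read 4.10 and 1.29 CPM in WT-Control and 17.7 and 16.9 CPM in WT-EtOH (log2 fold change 2.68 ± 0.46 SE, edgeR adjusted p = 0.00503). Monocyte and dendritic cell markers were higher in 3 of 6 cases, T and NK cell markers in 1 of 9, B and plasma cell markers in 1 of 4, and none of 4 neutrophil markers was called. Hepatocyte markers had 1 of 11 lower, Apoa1. Cholangiocyte markers had 1 of 6 lower and red blood cell markers 2 of 5. In bulk tissue, more cells of a type and more RNA per cell of that type cannot be told apart. The part of cell composition in the macrophage, antigen presentation and matrix values was not tested. Lrat stayed past the threshold with each WT library left out.

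**Figure D4:**
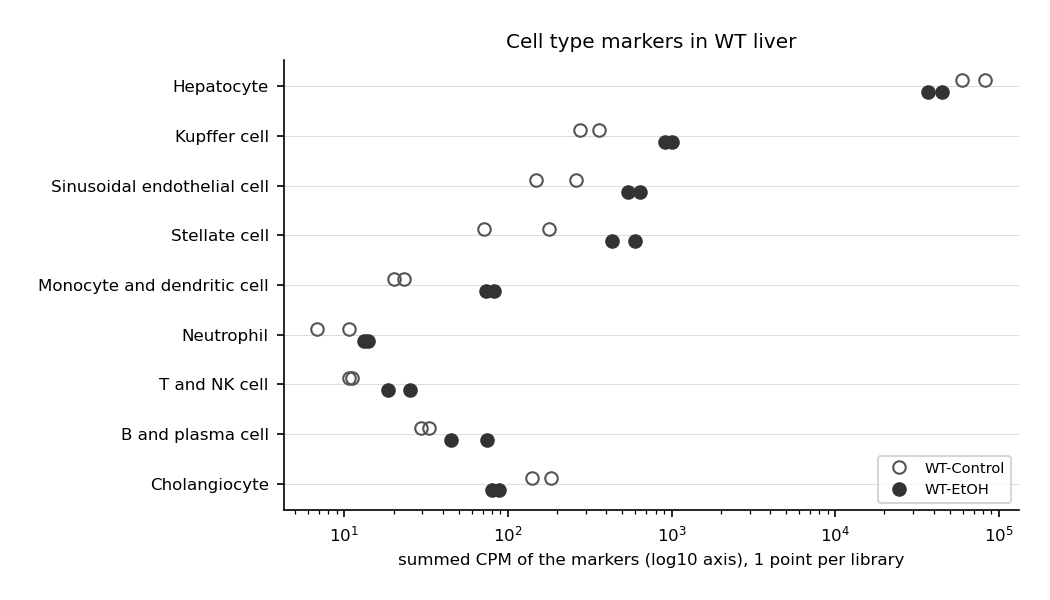
Summed CPM of the marker genes of 9 cell types in each WT library, on a log10 axis, with open circles for WT-Control and filled circles for WT-EtOH. Kupffer, endothelial, stellate, monocyte, neutrophil, T and NK and B cell sums are higher in both WT-EtOH libraries, and hepatocyte and cholangiocyte sums are lower.

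Matrix genes were higher in 13 of 37 cases and lower in 3, with a median of 1.22. Summed over the list, the level was 1818 and 1946 CPM in WT-Control and 1692 and 1458 CPM in WT-EtOH. Both WT-EtOH sums were under both WT-Control sums, so the list total did not rise. Such a sum is set mostly by the most abundant members, while the median counts each gene alike. Timp3, an inhibitor of matrix proteases, read 9.32 and 6.81 CPM in WT-Control and 45.9 and 68.8 CPM in WT-EtOH (log2 fold change 2.83 ± 0.35 SE, edgeR adjusted p = 0.00182), and Nid1, a basement membrane protein, read 2.61 and 1.10 CPM in WT-Control and 10.49 and 15.1 CPM in WT-EtOH (log2 fold change 2.78 ± 0.53 SE, edgeR adjusted p = 0.00747). The fibrosis gene Col1a1 read 5.03 and 3.86 CPM in WT-Control and 8.72 and 11.9 CPM in WT-EtOH and was not called (log2 fold change 1.22), and Acta2, the marker of activated stellate cells, read 3.92 and 0.736 CPM in WT-Control and 2.53 and 3.06 CPM in WT-EtOH, overlapping. Mmp14, a membrane protease, was lower at 186 and 84.3 CPM in WT-Control and 48.05 and 61.1 CPM in WT-EtOH (log2 fold change -1.31 ± 0.37 SE, edgeR adjusted p = 0.0315). Of the 16 calls 2 to 10 held with 1 WT library left out. Junction genes had 7 of 22 lower and 3 higher, with Cdh1, E-cadherin, at 29.8 and 40.1 CPM in WT-Control and 5.56 and 5.20 CPM in WT-EtOH (log2 fold change -2.70 ± 0.53 SE, edgeR adjusted p = 0.00855), Cldn3, a hepatocyte claudin, at 89.9 and 109 CPM in WT-Control and 29.8 and 26.7 CPM in WT-EtOH (log2 fold change -1.82 ± 0.31 SE, edgeR adjusted p = 0.00468) and Ocln, occludin, at 19.95 and 18.8 CPM in WT-Control and 9.99 and 7.85 CPM in WT-EtOH (log2 fold change -1.12 ± 0.32 SE, edgeR adjusted p = 0.035). Tjp1 read 38.8 and 28.5 CPM in WT-Control and 32.1 and 31.4 CPM in WT-EtOH, with the diets overlapping. The junction median of -0.28 became 0.14 under library totals, where 6 were higher and 3 lower. Without WT-Control replicate 1, the log2 fold change was -0.63 for Mmp14. Timp3 stayed past the threshold with each WT library left out.

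Heat shock proteins were higher in 15 of 30 cases and lower in none, with a median of 0.97. Hspa1b, an inducible HSP70, read 8.02 and 10.49 CPM in WT-Control and 65.4 and 67.97 CPM in WT-EtOH (log2 fold change 2.85 ± 0.40 SE, edgeR adjusted p = 0.00262). Hspb1, the small chaperone HSP27, read 11.7 and 8.83 CPM in WT-Control and 67.01 and 55.7 CPM in WT-EtOH (log2 fold change 2.57 ± 0.40 SE, edgeR adjusted p = 0.00359), and Hsph1, a nucleotide exchange factor, read 18.6 and 14.2 CPM in WT-Control and 60.8 and 82.7 CPM in WT-EtOH (log2 fold change 2.13 ± 0.25 SE, edgeR adjusted p = 0.0015). All WT-EtOH libraries lay above the WT-Control libraries in these genes, as in every gene called higher. Hspa1a, a near-identical copy of Hspa1b named after its values were seen, read 1.31 and 1.29 CPM in WT-Control and 2.91 and 2.65 CPM in WT-EtOH and was not called. Of the 15 calls 9 to 11 held with 1 WT library left out. The upstream regions of Hspa1b and Hspb1 are shown because a heat shock element lies in both, with matches to GAANNTTC, which reads the same on either strand, in capitals.
Hspa1b, chr17:34959239-34959488, minus strand: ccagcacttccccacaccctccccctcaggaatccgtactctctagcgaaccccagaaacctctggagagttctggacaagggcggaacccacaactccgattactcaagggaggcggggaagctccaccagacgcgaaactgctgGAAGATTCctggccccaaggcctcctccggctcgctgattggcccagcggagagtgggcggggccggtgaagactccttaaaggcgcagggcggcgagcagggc
Hspb1, chr5:135887669-135887918, plus strand: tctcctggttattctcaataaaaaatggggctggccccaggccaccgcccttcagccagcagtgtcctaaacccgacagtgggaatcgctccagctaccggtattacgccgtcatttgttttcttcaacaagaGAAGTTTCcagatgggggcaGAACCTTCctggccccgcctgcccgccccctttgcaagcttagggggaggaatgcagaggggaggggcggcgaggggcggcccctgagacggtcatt
The element stood in 9 of 24 regions of the list (37.5%) against 6.17% of 10294, and in 6 of the 13 called members with a region. The lists were drawn up by known function, so an excess of an element over all regions says nothing of the diet. For other lists, the antioxidant element TGACNNNGC was in 4 of 20 transferase regions (20%) and 6 of 26 oxidative stress regions (23.1%) against 13.8% of all. The sterol element TCACNCCAC was in 1 of 16 cholesterol synthesis regions (6.25%) against 1.3%, and the E-box CACGTG in 5 of 16 clock regions (31.2%) against 9.86%. The PPAR element, AGGTCA repeated after any 1 base, was in none of the oxidation or Cyp4 regions and in 0.0389% of all, so this window holds too few to compare. All calls given with values here held with each WT library left out.

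Of other stress lists, the unfolded protein response had 32.1% of members called and immediate early genes 43.5%, against 21.6% of all genes. The integrated stress response stood at 14.8%, below that share. Of 28 genes of the unfolded protein response 4 were higher and 5 lower, with a median of -0.23 (0.20 under library totals). Hspa5, the chaperone BiP, read 234 and 329.9 CPM in WT-Control and 433 and 276 CPM in WT-EtOH and was not called, and Calr, calreticulin, was lower at 592 and 609.6 CPM in WT-Control and 269 and 199.6 CPM in WT-EtOH (log2 fold change -1.36 ± 0.23 SE, edgeR adjusted p = 0.00459). Dnajb9, a cochaperone, was higher at 40.8 and 36.98 CPM in WT-Control and 121 and 74.9 CPM in WT-EtOH (log2 fold change 1.33 ± 0.25 SE, edgeR adjusted p = 0.00703). In the integrated stress response 3 of 27 were higher and 1 lower, Trib3, a pseudokinase, at 24.6 and 23.9 CPM in WT-Control and 7.71 and 7.64 CPM in WT-EtOH (log2 fold change -1.66 ± 0.36 SE, edgeR adjusted p = 0.0116), while Ddit3 (CHOP) read 30.2 and 25.4 CPM in WT-Control and 21.7 and 14.6 CPM in WT-EtOH and was not called. Immediate early genes had 6 of 23 higher and 4 lower, with Myc at 1.49 and 1.47 CPM in WT-Control and 8.85 and 14.4 CPM in WT-EtOH (log2 fold change 2.96 ± 0.43 SE, edgeR adjusted p = 0.00295) and Jun at 8.20 and 9.57 CPM in WT-Control and 26.7 and 27.8 CPM in WT-EtOH (log2 fold change 1.61 ± 0.31 SE, edgeR adjusted p = 0.00737). Of 36 cell cycle genes 3 were higher and 2 lower, 13.9% called and so below the share of all genes. Myc stayed past the threshold with each WT library left out.

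Transcripts of mitochondrial proteins were counted by origin, with no test between the sets. Of 24 tested transcripts of the mitochondrial genome 16 were lower and none higher, with a median of -1.89, and their summed level was 400430 and 265530 CPM in WT-Control and 110650 and 90394 CPM in WT-EtOH. mt-Co1, a subunit of cytochrome oxidase, read 123854 and 82376 CPM in WT-Control and 30320.1 and 24804 CPM in WT-EtOH (log2 fold change -1.90 ± 0.44 SE, edgeR adjusted p = 0.0158). mt-Cytb, of complex III, read 88014 and 57776 CPM in WT-Control and 20203 and 14543 CPM in WT-EtOH (log2 fold change -2.07 ± 0.43 SE, edgeR adjusted p = 0.0104). WT-Control replicate 1 was the highest library in both, and 1 to 15 of the 16 calls held with 1 WT library left out. Nuclear genes of the respiratory chain were higher in 20 of 80 cases and lower in 4, with a median of 0.22 that became -0.04 without WT-Control replicate 1. Cox5a, a subunit of the same oxidase, read 17.2 and 33.9 CPM in WT-Control and 123.3 and 125 CPM in WT-EtOH (log2 fold change 2.28 ± 0.30 SE, edgeR adjusted p = 0.00223), and Atp5b, of the ATP synthase, read 115 and 212 CPM in WT-Control and 604 and 630.5 CPM in WT-EtOH (log2 fold change 1.92 ± 0.30 SE, edgeR adjusted p = 0.0037). Mitochondrial ribosomal proteins had 14 of 77 higher and 7 lower, with a median of 0.14 that became -0.07 without WT-Control replicate 1. Leaving out each WT library in turn kept the calls of Cox5a and Atp5b.

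Genes of protein turnover were mostly higher where called. Cytosolic ribosomal proteins were higher in 29 of 77 cases and lower in none (median 0.65), and their summed level was 9382 and 13304 CPM in WT-Control and 16502 and 17175 CPM in WT-EtOH. Rpl4 read 125 and 156 CPM in WT-Control and 390.4 and 410.0 CPM in WT-EtOH (log2 fold change 1.51 ± 0.22 SE, edgeR adjusted p = 0.00281), and Rps4x read 47.9 and 93.7 CPM in WT-Control and 195 and 208 CPM in WT-EtOH (log2 fold change 1.51 ± 0.29 SE, edgeR adjusted p = 0.00795). These genes have many processed copies in the genome, which can take reads. Translation factors had 20 of 53 higher and 1 lower (median 0.42), with Eif3i at 13.4 and 24.5 CPM in WT-Control and 55.00 and 52.7 CPM in WT-EtOH (log2 fold change 1.51 ± 0.26 SE, edgeR adjusted p = 0.00471) and Eif4g3, a scaffold, lower at 222 and 172 CPM in WT-Control and 90.03 and 90.9 CPM in WT-EtOH (log2 fold change -1.12 ± 0.21 SE, edgeR adjusted p = 0.00619). Proteasome subunits had 17 of 37 higher and 1 lower (median 0.69). Psmd13, of the regulatory lid, read 6.71 and 7.91 CPM in WT-Control and 50.7 and 41.3 CPM in WT-EtOH (log2 fold change 2.65 ± 0.22 SE, edgeR adjusted p = 0.000452) and overlaps Sirt3. Psmb9, an interferon-induced catalytic subunit, was the lower one at 27.8 and 33.5 CPM in WT-Control and 15.7 and 15.1 CPM in WT-EtOH (log2 fold change -0.99 ± 0.27 SE, edgeR adjusted p = 0.0269). Lysosomal genes had 15 of 43 higher and 1 lower (median 0.41), and splicing factors 2 of 45 and 3, below the background share. When WT-EtOH replicate 2 was left out, 5 of 29 ribosomal, 3 of 21 translation and 6 of 18 proteasome calls held. With any 1 WT library left out, Rpl4, Eif3i and Psmd13 stayed past the threshold.

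Elf4-/- mice gave the same diet contrast in another set of livers. There the diet changed 404 genes (2.89%), with 239 higher (1.71%) and 165 lower (1.18%). The Elf4-/- EtOH libraries differed from each other, with summed levels of 934 and 4909 CPM for the Mup list. For the Cyp4 list they were 6926 and 2748 CPM. The part of this spread in the smaller count was not tested. No gene passed the test of the difference between genotypes (edgeR interaction, 0 of 13993), against 1411 genes (10.1%) at an unadjusted p under 0.05, 691 higher (4.94%) and 720 lower (5.15%), and 98 genes in DESeq2. List medians are given side by side. They were -3.51 in WT and -2.71 in Elf4-/- for the Mup genes, -2.41 and -2.29 for male-biased genes, 1.69 and 2.52 for female-biased genes, and 1.14 and 0.72 for glutathione S-transferases. They lay further apart for cholesterol synthesis, at -0.51 and 0.96, for mitochondrial genome transcripts, at -1.89 and 0.11, and for periportal nitrogen genes, at -1.23 and -0.24. In those lists 16 of 21, 18 of 24 and 8 of 20 members had an unadjusted interaction p under 0.05, with none past the adjusted threshold. In mitochondrial share, the Elf4-/- control libraries stood at 18.7% and 18.5% and the Elf4-/- EtOH libraries at 22.1% and 18.3%.

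**Figure D5:**
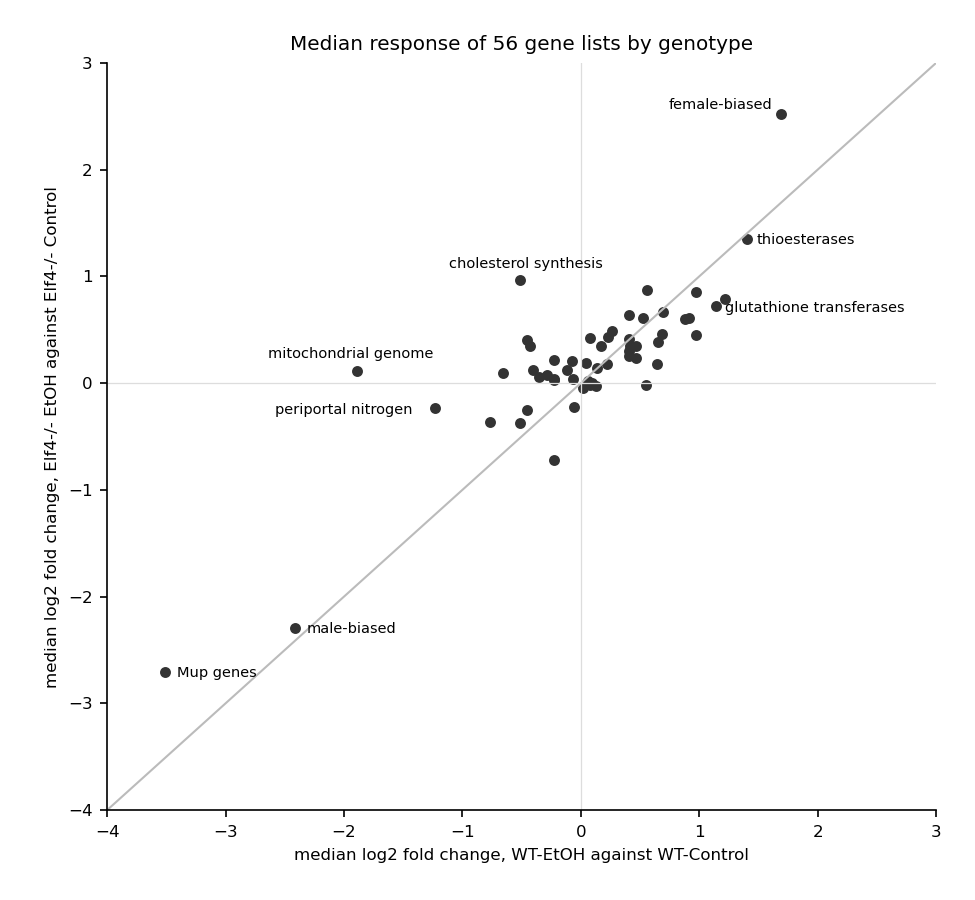
Median log2 fold change of 56 gene lists under the alcohol diet in WT (horizontal axis) and in Elf4-/- (vertical axis) liver, with a grey line of equality. Mup and male-biased lists sit low on both axes and female-biased genes high on both, while cholesterol synthesis and mitochondrial genome transcripts lie above the line, at -0.51 and 0.96, and -1.89 and 0.11.

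Outside the lists, some single genes changed as steeply. BC049987 read 32.6 and 14.5 CPM in WT-Control and 0.506 and 0.102 CPM in WT-EtOH (log2 fold change -6.29 ± 0.90 SE, edgeR adjusted p = 0.0028), and Gm31583 read 70.9 and 109 CPM in WT-Control and 2.02 and 1.12 CPM in WT-EtOH (log2 fold change -5.85 ± 0.64 SE, edgeR adjusted p = 0.0013). Both are transcripts without a known role. Among the largest gains in CPM, Selenop, the selenium transport protein of plasma (chromosome 15, 3268547 to 3280508, plus strand), read 1070.0 and 1838 CPM in WT-Control and 4027 and 4046 CPM in WT-EtOH (log2 fold change 1.47 ± 0.31 SE, edgeR adjusted p = 0.0112). Ccdc152 overlaps Selenop on the opposite strand and read 992 and 1537 CPM in WT-Control and 2856 and 2853 CPM in WT-EtOH (log2 fold change 1.17 ± 0.28 SE, edgeR adjusted p = 0.018), and the pair cannot be told apart without strand. Elf4 itself, intact in WT liver, read 1.12 and 2.02 CPM in WT-Control and 3.41 and 3.67 CPM in WT-EtOH and was not called (edgeR adjusted p = 0.159). Past the threshold with each WT library left out were BC049987 and Gm31583.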

How the data were processed

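Per the study's methods, the authors checked paired-end Illumina HiSeq reads of total liver RNA with FastQC, aligned them to mm10 (HISAT2, then SAMtools for sorting), counted them with HTSeq and tested them with DESeq2. The deposited values are raw read counts per gene symbol. The annotation, strand setting and treatment of reads with several origins are not given in the sources used here, so overlapping genes and close copies may share reads. Here, 968 blank rows were dropped and genes with few counts were removed by filterByExpr. All 8 libraries entered 1 quasi-likelihood model of 4 groups in edgeR 4.0.16 (R 4.3.3) with TMM factors, and p-values were adjusted over all 13993 genes by Benjamini-Hochberg. The common biological coefficient of variation was 22.7%. SEs were derived from the fold change and its F statistic. Folds against a group with 3 or fewer counts in each library were set against a floor of 3 counts, and such bounds cover counting error only. The fit was tested on simulated data.

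The gene lists, the naming rule and the comparison described were chosen with earlier results of these data known. Genes were named from up to 3 called members per list with the largest change, at least 50 counts on average and no overlap, the largest opposite call, the 10 largest rises, falls, gains and losses, and a fixed set of liver genes. Not every gene the rule gave is named, and exceptions are marked. A few genes are not reported here. No list was tested as a set. Coordinates come from GENCODE on GRCm38, the assembly of mm10, where 98.2% of tested symbols matched, and upstream regions from RefSeq on GRCm38.p6. Replicates with the same number did not deviate together, since the correlations of their deviations between groups ran from -0.134 to 0.114, so numbers were not taken as pairs. Replicate libraries of a group differed beyond counting error. Alternatives were DESeq2 1.42.0, other scalings, other filters, only the WT libraries, a replicate block, a test against a log2 fold change of 0.5 and leaving out each library. Library totals without the mitochondrial genome were added after seeing the data.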

Additional observations from a re-analysis of the deposited data

How the results depend on the processing

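Of 135 called genes named in the text with their statistics, none changed direction under any alternative that gave a value, and 134 kept the call in DESeq2, 135 with DESeq2's size factors, 125 with library totals, 132 with upper-quartile factors, 135 in a fit of the WT libraries alone and 114 in a test against a log2 fold change of 0.5. Leaving out 1 WT library kept 75 (without WT-EtOH replicate 2) to 107 (without WT-Control replicate 2). The group then holds 1 library, which is assumed to vary like the others. Genes higher and lower numbered 3422 and 634 with library totals alone, 697 and 640 against a log2 fold change of 0.5, and 373 to 881 and 253 to 872 with 1 WT library left out. The cause of the shift under library totals was not tested. DESeq2, the other scalings, both filters and the fit of WT libraries alone left these counts within 1.5 times.

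With the replicate block the diet changed 1351 genes upward and 1288 downward, and 131 of the 135 named calls held. The numbers share no stated origin, and same-numbered samples did not deviate together, so the block was not used. The interaction, with 0 genes, gave 98 in DESeq2, 7 without the filter and 0 to 139 with 1 library left out, the highest without Elf4-/- EtOH replicate 2 and next, at 62, without its replicate 1.

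Among genes not called, signs turned. With library totals the log2 fold change was 0.32 for Cat, 0.23 for Ghr, 0.11 for Nr1i2, 0.22 for Per1 and 0.35 for Tjp1. With library totals without the mitochondrial genome it was 0.012 for Cat and 0.028 for Tjp1, and with upper-quartile factors 5.94e-05 for Tjp1. With 1 WT library left out it ran from -0.48 to 1.90 for Acta2, -0.030 to 0.61 for Hspa5, -0.62 to 0.075 for Per1 and -0.29 to 0.15 for Tjp1. Medians of 12 of 56 lists changed sign with library totals, none of them over 0.43 in size.

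Low counts limited cytokines such as Tnf, which was not tested.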

Other observations

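Transcript classes outside the lists were counted too. Of 245 tested lincRNA genes, 10 were higher and 49 lower under alcohol (median log2 fold change -0.41), against 1365 higher and 1268 lower of 12001 protein-coding genes and a median of 0.03. Malat1, an abundant nuclear RNA, read 901 and 899 CPM in WT-Control and 416 and 368 CPM in WT-EtOH (log2 fold change -1.20, edgeR adjusted p = 0.0146). Neat1, the RNA of nuclear paraspeckles, read 1571 and 3180 CPM in WT-Control and 763 and 855 CPM in WT-EtOH (log2 fold change -1.55, edgeR adjusted p = 0.0179). Both were named after their values were seen. Neither call held with each WT library left out, and the log2 fold change of Neat1 was -0.96 without WT-Control replicate 2 (edgeR adjusted p = 0.102). Of 260 processed pseudogenes 27 were higher, no more than the 10.8% of all genes, and 13 lower, with a median of 0.26.

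By transcript length the medians were 0.05 in the shortest group of genes, 0.01 in the middle and -0.01 in the longest. By GC content they were 0.06 in the lowest group, 0.04 in the middle and -0.08 in the highest, where 442 genes were higher and 619 lower.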
